A study of Mus musculus with 32 samples.

Results

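Expression of a module of mitosis and kinetochore genes was examined across 32 lymphomas of Eµ-myc mice. The module is a list of 44 genes that build the kinetochore and the spindle, act in the spindle checkpoint, drive entry into mitosis or divide the cell. A gene was measured where a probe set of the array is annotated to its symbol alone, and its brightest such probe set was used. That gave 43 measured genes, out of 18194 genes of the whole series with a probe set of this kind. Ccnb1, which encodes cyclin B1, had no such probe set in the annotation used and is not analysed here. All 43 were bright enough to enter the tests, which covered 11228 genes.

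Each tumour was profiled on 1 Affymetrix Mouse430_2 array, and values are log2 expression levels. In the Eµ-myc transgene the immunoglobulin heavy chain enhancer drives Myc in cells of the B lineage, and all 32 tumours carried it. The labels give a single group with no control and name no treatment, strain or age, so the results describe how tumours, named by their number in the labels, differ from each other. The RNA source was lymphoma tissue or a cell suspension made from it, and the labels do not link either to a given tumour. They do not state whether tumours share a mouse, in which case the p-values would be too small.

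Pan-B markers were measured in all tumours: Cd79a, a chain of the B cell receptor complex, lay between 9.37 and 11.63, Cd79b between 11.11 and 12.63, and the B cell transcription factor Pax5 between 7.16 and 9.04. Of the other markers in the B lineage list, Ebf1 lay between 6.24 and 10.66 and Blk between 6.68 and 11.08. The lowest levels of Cd22, Blnk, Pou2af1 and Btk were 9.28 or higher. Tumour 24 had the lowest B lineage score (-1.72, a mean of standardised levels), and T cell transcripts were highest there (score 2.80). Tumour 2 came next (2.08) and had the lowest Myc level (9.81). In 11 tumours the salivary transcript Bpifa2 was above 10. Tumour 30, which is 1 of them, had the lowest S phase score (-3.30) and the highest myeloid score (2.36). Counts on the S phase and T cell scores are given with and without the tumours that decide them. Leaving out the 11 tumours with Bpifa2 above 10 moved no count of called genes by over 1.5 times except the one for RNA quality. In bulk RNA, fewer cells of a type and less RNA per cell cannot be told apart.

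During mitosis the kinetochore assembles on centromeric chromatin marked by the histone variant CENP-A, and its outer layer binds spindle microtubules. The spindle checkpoint holds back the anaphase-promoting complex, whose activator is Cdc20, until all chromosomes are attached. Kinesins and the Aurora and Polo kinases shape the spindle, and anillin, Ect2 and the centralspindlin proteins act in cytokinesis. Many of these genes are transcribed late in the cell cycle, and the promoter elements described for them are the cell cycle homology region (CHR), with the letters TTTGAA, and the CCAAT box, which binds NF-Y.

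The CHR letters were frequent in the promoters of the module. RefSeq (GRCm38.p6) gave 42 promoters, each 250 bases before to 50 bases after a gene's start, for 37 of the 44 listed genes. Searched on both strands, TTTGAA was present in 29 of the 42 (69.0%), against 17.9% of all 32851 promoters and 11.8% of the 11620 promoters of other tested genes. CCAAT was present in 34 (81.0%), against 37.4% of all promoters, and both motifs were present in 25 (59.5%), against 7.0%. TTTGAA lay within 50 bases of the start in 25 of the 42 promoters (59.5%), against 4.9% of all promoters. The letters TTTCCCGC or TTTGGCGC, known as E2F sites, were present in 1 promoter (2.4%), that of Cenpm, against 1.6% of all promoters and 2.9% of those of other tested genes. These motifs share no overlap with each other, and a match is a description of the letters and not a measured site.

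The promoters below show the arrangement, from 150 bases before to 50 bases after the start, with TTTGAA (or its reverse complement TTCAAA) and CCAAT in capitals. Those of Ccnb2 (cyclin B2), Cdc20 and Plk1 (Polo-like kinase) hold both motifs, that of Ndc80 (a microtubule-binding kinetochore protein) holds the CHR letters alone, and that of Cenpm, the gene of largest spread, holds CCAAT and no CHR letters. Anln was added after its values were seen, as the gene with 2 adjacent CHR matches next to the start.
Ccnb2 (chr9:70421505-70421704, minus strand): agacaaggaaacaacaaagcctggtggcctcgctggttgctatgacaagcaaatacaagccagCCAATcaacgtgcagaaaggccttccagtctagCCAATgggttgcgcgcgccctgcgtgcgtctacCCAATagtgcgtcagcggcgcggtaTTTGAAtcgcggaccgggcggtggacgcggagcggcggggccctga
Cdc20 (chr4:118437294-118437493, minus strand): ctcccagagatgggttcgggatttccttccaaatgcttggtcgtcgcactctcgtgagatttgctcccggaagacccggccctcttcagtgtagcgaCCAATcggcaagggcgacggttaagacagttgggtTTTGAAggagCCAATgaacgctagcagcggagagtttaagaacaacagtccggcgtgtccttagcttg
Plk1 (chr7:122159285-122159484, plus strand): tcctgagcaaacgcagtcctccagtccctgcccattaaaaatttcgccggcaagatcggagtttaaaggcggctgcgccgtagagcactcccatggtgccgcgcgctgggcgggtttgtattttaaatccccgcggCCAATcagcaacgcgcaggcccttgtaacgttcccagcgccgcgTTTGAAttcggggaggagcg
Ndc80 (chr17:71526808-71527007, minus strand): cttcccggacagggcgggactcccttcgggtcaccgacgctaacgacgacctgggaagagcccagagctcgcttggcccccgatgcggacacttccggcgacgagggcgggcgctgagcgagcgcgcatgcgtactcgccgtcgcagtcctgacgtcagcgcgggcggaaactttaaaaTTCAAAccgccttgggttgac
Cenpm (chr15:82244287-82244486, minus strand): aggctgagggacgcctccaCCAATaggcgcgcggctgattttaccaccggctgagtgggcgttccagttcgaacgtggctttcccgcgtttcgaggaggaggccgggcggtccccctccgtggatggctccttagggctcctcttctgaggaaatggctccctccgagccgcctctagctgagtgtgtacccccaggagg
Anln (chr9:22389157-22389356, minus strand): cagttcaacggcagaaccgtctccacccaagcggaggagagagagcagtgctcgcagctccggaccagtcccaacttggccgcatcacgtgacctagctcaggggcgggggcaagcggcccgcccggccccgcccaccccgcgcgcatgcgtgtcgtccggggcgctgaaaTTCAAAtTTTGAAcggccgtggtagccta

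No gene of the module was among the widely varying genes of the series. The SD over the 32 tumours had a median of 0.28 over the 43 genes and 0.28 over all genes tested, and 0 of the 43 had an SD above 0.5, against 18.1% of all genes. Spike-in controls give a technical scale: the highest SD among 18 hybridisation control probe sets was 0.22, exceeded by 34 of the 43 genes and by 69.5% of all genes. Among 24 poly-A control probe sets the highest SD was 0.37, exceeded by 5 of the 43 genes and 32.1% of all genes. Each tumour has 1 array, so differences between tumours have no replicate check.

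**Figure D1:**
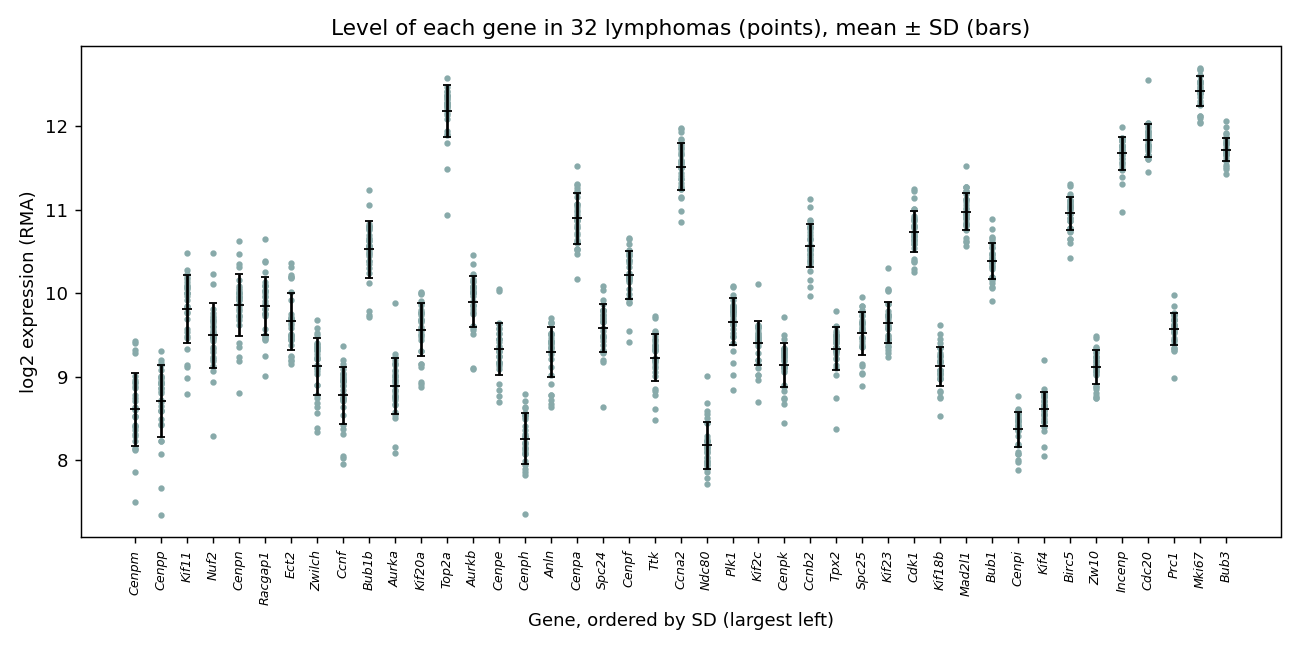
Level of each of the 43 genes in the 32 lymphomas (points, log2 expression) with the mean and SD (bars), ordered by SD from Cenpm (0.44) to Bub3 (0.14). Single tumours lie apart from the rest for some genes, such as tumour 30 at 10.94 for Top2a and tumour 21 at 12.56 for Cdc20.

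Inner kinetochore genes held 3 of the 6 largest SDs. Cenpm, a subunit of the constitutive centromere-associated network, had an SD of 0.44, with 7.50 in tumour 30, a median of 8.60 and 9.42 in tumour 13. Cenpp, a subunit of the same network, had an SD of 0.43, with 7.34 in tumour 2, a median of 8.84 and 9.31 in tumour 31. Cenpn, which binds CENP-A nucleosomes, had an SD of 0.37, with 8.81 in tumour 24, a median of 9.93 and 10.63 in tumour 31. The lows of these 3 genes thus fell in 3 different tumours. Over the 7 inner kinetochore genes, with Cenpa, Cenph, Cenpi and Cenpk as the others, SDs ran from 0.21 to 0.44.

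Among outer kinetochore genes the largest spread was that of Nuf2, a partner of Ndc80 in the microtubule-binding complex, with an SD of 0.39, 8.28 in tumour 18, a median of 9.49 and 10.48 in tumour 23. Tumour 18 lay well below the next lowest, tumour 24, at 8.93. Zw10, which recruits dynein to kinetochores, was among the steadiest, with an SD of 0.20, 8.75 in tumour 30, a median of 9.12 and 9.48 in tumour 31. The other outer kinetochore genes (Ndc80, Spc24, Spc25, Cenpe, Cenpf and Zwilch) lay between these in SD. In the spindle checkpoint Bub3, a partner of Bub1, had the smallest SD of the module (0.14), with 11.43 in tumour 24, a median of 11.70 and 12.06 in tumour 23. Bub1, Bub1b, Mad2l1 and Ttk, the other checkpoint genes, had SDs up to 0.34.

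Of the kinases and chromosomal passengers, Incenp, the scaffold of the Aurora B complex, had an SD of 0.20, with 10.97 in tumour 14, a median of 11.73 and 11.996 in tumour 19. Tumour 14 stood apart, since the next lowest level was 11.30. SDs of the others (Aurka, Tpx2, Plk1, Aurkb and Birc5) ran up to 0.33. The spindle kinesin Kif11 had an SD of 0.40, with 8.79 in tumour 18, a median of 9.94 and 10.48 in tumour 31, and the other 5 kinesins had SDs from 0.21 to 0.32.

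Cdc20 had an SD of 0.20, with 11.45 in tumour 24, a median of 11.80 and 12.56 in tumour 21, where the next highest was 12.05. Among the cyclins and Cdk1 the SD was largest for Ccnf (0.34). The proliferation marker Mki67 was narrow, with an SD of 0.18, 12.04 in tumour 2, a median of 12.45 and 12.70 in tumour 31. In cytokinesis, Racgap1, a centralspindlin subunit, had an SD of 0.35, with 9.01 in tumour 2, a median of 9.86 and 10.65 in tumour 31. Prc1, which bundles midzone microtubules, had an SD of 0.19, with 8.99 in tumour 18, a median of 9.60 and 9.98 in tumour 31.

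Probe sets of a gene did not always follow each other. Of the 26 genes with several probe sets, 20 had another one whose correlation with the brightest was above 0.5 and 6 had none. In these 6 the highest such correlation was 0.08 for Spc25, 0.26 for Bub1, 0.36 for Aurka, 0.39 for Top2a, and 0.41 for Bub3 and Tpx2. Levels and calls of these 6 genes thus rest on the probe set used. Some of the 20 also had a probe set that did not follow the brightest. Its correlation was 0.03 for Racgap1, 0.06 for Zw10, 0.14 for Incenp and 0.15 for Kif2c.

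Tumours differed as a whole in the module. In tumour 31 all 43 genes were above their own medians, by a median of 0.38, and 18 genes had their highest level there. In tumour 24 all 43 genes were below, by a median of -0.40, and 9 had their lowest level. Tumour 2 had 5 genes above their medians and a median deviation of -0.35, tumour 9 had 5 above and -0.31, tumour 18 had 8 above and -0.30, and tumour 25 had 3 above and -0.29. Tumour 31 had the smallest signal gap between the 3' and 5' ends of the control transcripts Gapdh and Actb (0.26 on the log2 scale, where a larger gap marks poorer RNA) and tumour 9 the largest (0.96). The T cell score was highest in tumours 24, 2 and 9. Tumour 25 had the highest stroma score (2.22) and the highest precursor B score (1.26). The part of RNA quality and of other cells in these tumours' levels was not tested.

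Tumour 30 was split. There 28 genes were below and 15 above their medians. The deviation was -1.33 for Top2a, which untangles chromosomes, -1.11 for Cenpm, -1.02 for Spc24 of the Ndc80 complex and -0.89 for Plk1. It was 0.66 for the kinesin Kif23, 0.53 for its partner Racgap1 and 0.46 for the kinetochore protein Cenpf, and Kif23 and Cenpf had their highest level of all 32 tumours. Genes of the module thus moved both ways in that tumour.

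**Figure D2:**
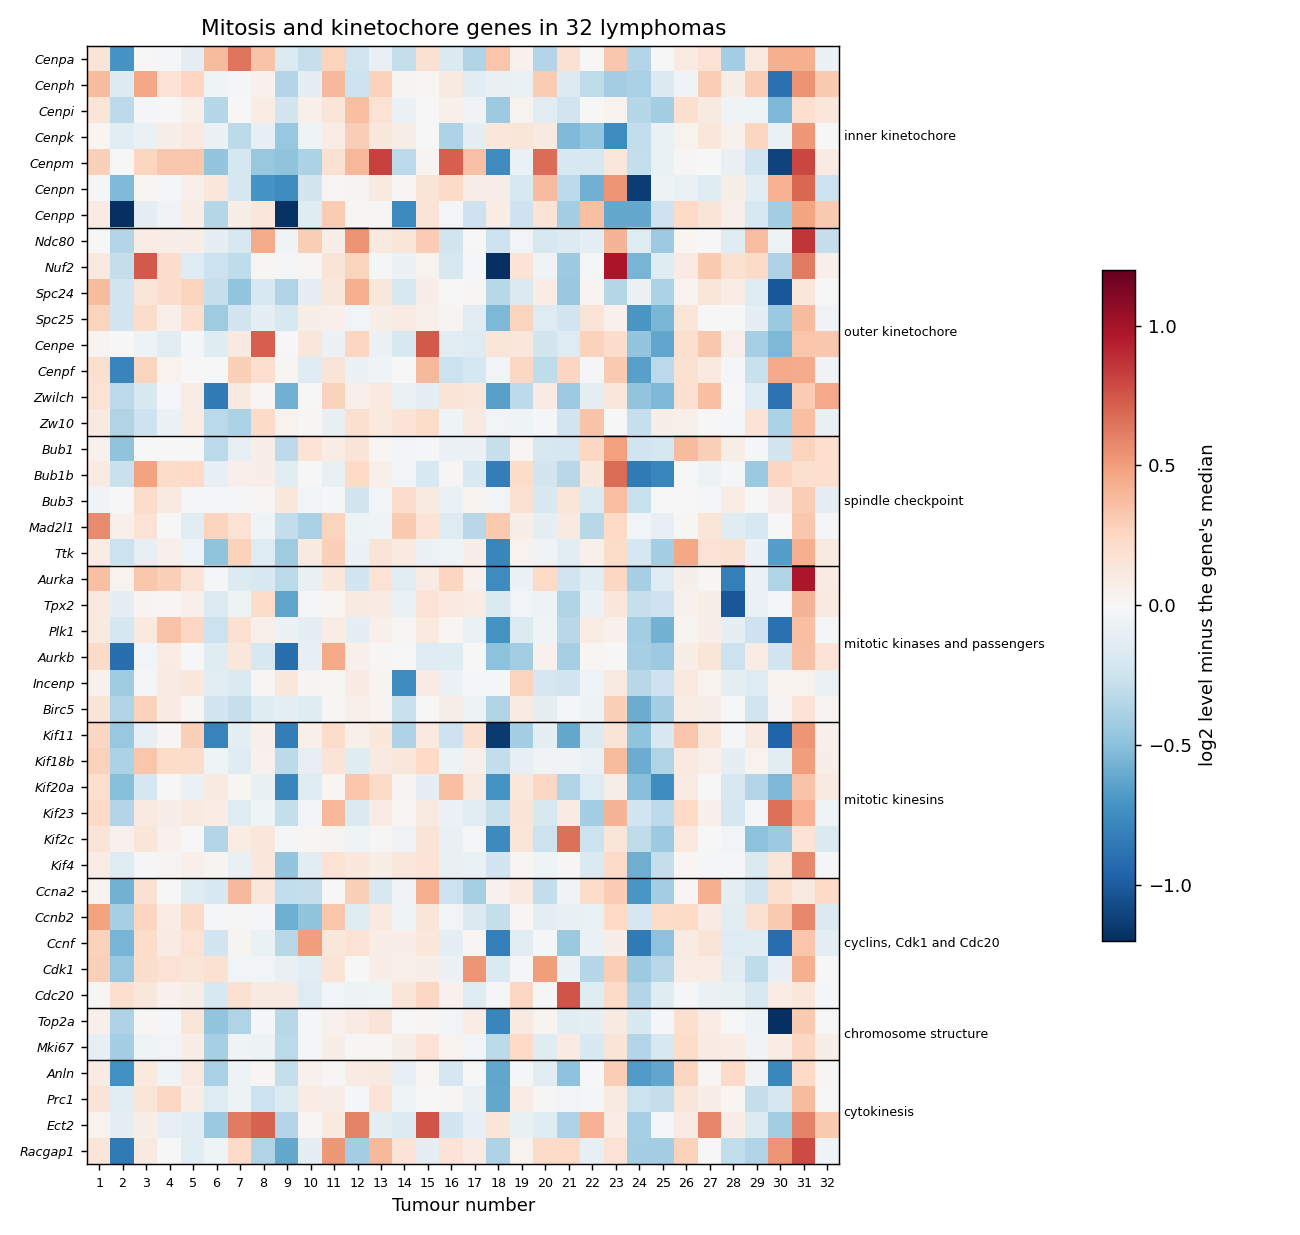
Deviation of each gene (rows, grouped by role) from its own median in each tumour (columns, tumour number), on the log2 scale, red above and blue below. Tumour 31 is above the median in 43 of 43 genes, tumour 24 below in 43 of 43, and tumour 30 is mixed, with 15 above.

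Correlations between the genes over tumours were mostly positive. The mean Pearson r over the 903 pairs was 0.40, against 0.01 over all pairs of tested genes, and 320 pairs (35.4%) had an r above 0.5, against 3.78% of all gene pairs. An r below 0 was seen in 5.20% of the pairs, against 49.2% of all gene pairs. The highest was that of Anln and Cenpi (0.89), followed by Anln and Ccnf (0.88) and Cenpi and Zwilch (0.87). The lowest was that of Cenpa and Spc24 (-0.33), followed by Cenpk and Cdc20 (-0.28). All correlations here are descriptions over 32 tumours whose levels share an array, and without tumour 31 the mean r was 0.352. Within roles the mean r was highest for the 6 kinesins (0.51) and lowest for the cyclins, Cdk1 and Cdc20 (0.29). The mean r of these 2 groups to genes of other roles was 0.450 and 0.375.

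**Figure D3:**
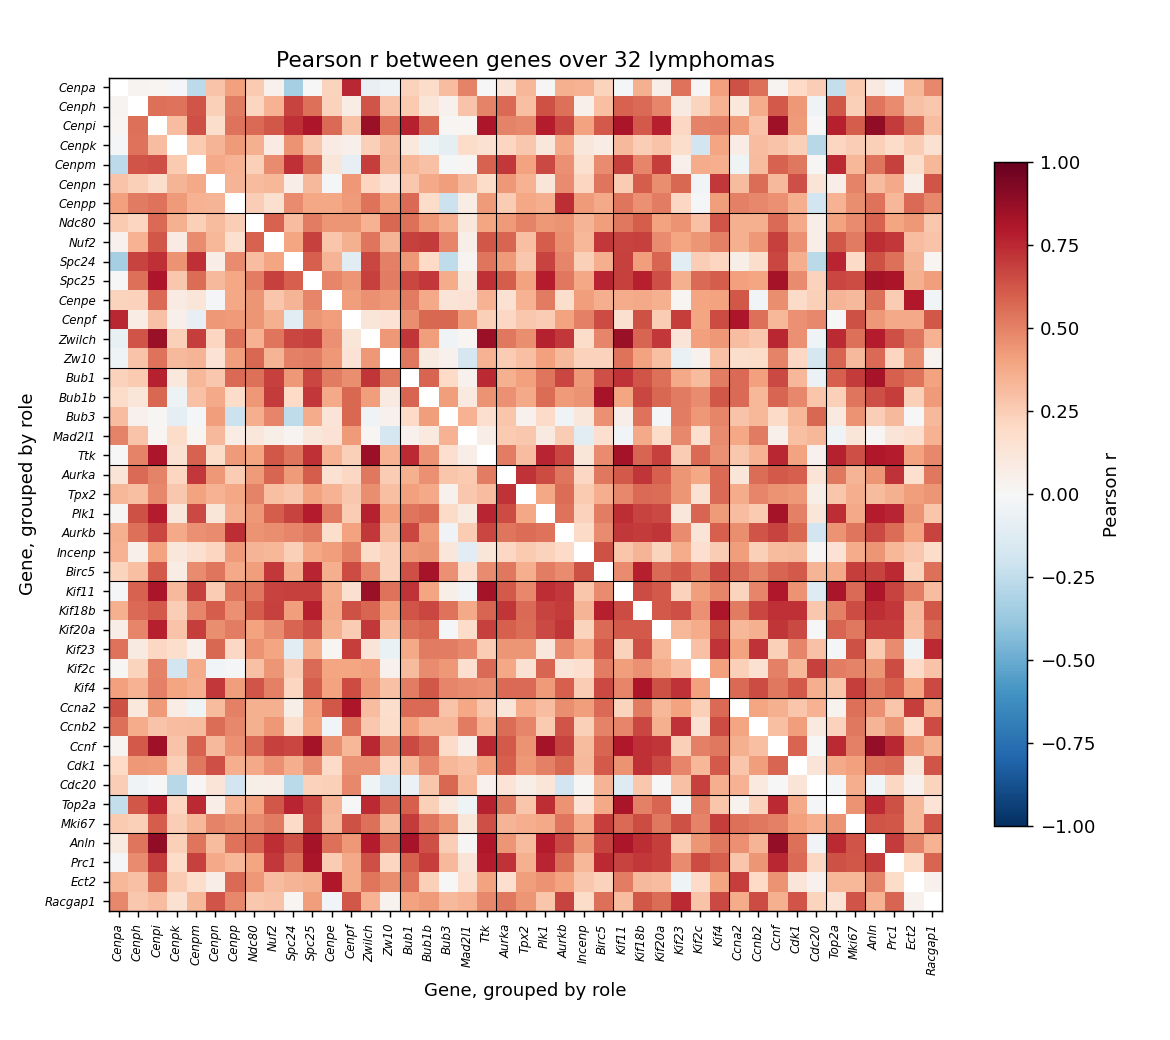
Pearson r between the 43 genes over 32 lymphomas, with genes grouped by role (lines separate roles) and colour from -1 (blue) to 1 (red). Most cells are red, from 0.89 for Anln with Cenpi, while Cdc20, Mad2l1 and Cenpa form pale or blue bands.

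Proteins that act as partners were compared with limma, which tested each of 11227 genes against the level of 1 anchor gene, scaled to an SD of 1, with Benjamini-Hochberg adjustment over all genes. Of 19 partner pairs, 5 passed an adjusted p of 0.05, all rising together. Of the 42 other genes of the module, 30 rose with Aurkb, 25 with Bub1, 25 with Prc1, 18 with Aurka and 13 with Racgap1. Among all genes 2.98% to 13.8% rose with these 5 anchors. Whether partners passed more often than other genes of the module was not tested. Kif23 rose with Racgap1, its partner in centralspindlin (slope 0.18 ± 0.03 log2 per SD, SE, adjusted p 0.0026, r 0.74), and Tpx2 with the Aurora A kinase that it activates (0.19 ± 0.03, adjusted p 0.00392, r 0.73). Bub1b rose with Bub1 (0.20 ± 0.05, adjusted p 0.00777) and Kif4 with Prc1 (0.12 ± 0.03, adjusted p 0.0119). Birc5 (survivin) rose with Aurkb (0.10 ± 0.03, adjusted p 0.0358), but without tumour 2 its adjusted p was 0.101. In the order named, r of these 5 pairs was 0.74, 0.73, 0.58, 0.59 and 0.48. Without the 2 tumours farthest from the anchor's median it was 0.69, 0.55, 0.50, 0.48 and 0.46.

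Other partners did not pass. Incenp with Aurkb, both of the passenger complex, had an r of 0.19 (adjusted p 0.48), and Ect2 with Racgap1, which activates it, an r of 0.05 (adjusted p 0.916). Nuf2 with Ndc80 had an r of 0.59 and Spc25 with Ndc80 0.51 (adjusted p 0.199 and 0.285), and no gene of 11227 passed against Ndc80, where 30 of 42 other genes of the module had an unadjusted p under 0.05, against 10.9% of all genes. Cyclin B2 with Cdk1 had an r of 0.42 (adjusted p 0.128), and 0.60 without the 2 tumours farthest from the Cdk1 median. Cenph with Cenpk, neighbours in the inner kinetochore, had an r of 0.54 (adjusted p 0.549), Zwilch with Zw10 0.43 (adjusted p 0.107) and Bub3 with Bub1 0.20 (adjusted p 0.486). The remaining 6 pairs had an r between 0.26 and 0.43.

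Anchors differed in how much of the module rose with them. Against Aurkb 30 of 42 other genes rose (background 13.8% of all genes), against Bub1 25 (10.8%), against Prc1 25 (8.86%), against Aurka 18 (3.3%), against Racgap1 13 (2.98%), against Cdk1 12 (3.3%) and against Zw10 5 (1.92%). Against Ndc80 and Cenpk the count was 0 in limma (background 0%). At an unadjusted p under 0.05 it was 30 and 6, against 10.9% and 5.83% of all genes. For each of the other 7 anchors the share of the module was above the share of all genes.

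A score of 28 DNA replication genes (S phase score) was set against each gene to ask whether mitotic transcripts varied with those of replication. Of the 43 genes, 16 rose with the score (37.2%) and 0 fell, against 15.7% of all genes that rose and 9.76% that fell (limma, adjusted p under 0.05). The median slope was 0.09 log2 per SD over the module and 0.01 over all genes. Spc24 had 8.63 in tumour 30, a median of 9.66 and 10.09 in tumour 12, and rose by 0.23 ± 0.03 per SD (adjusted p 8.14e-06). Tumour 30 was far below the next lowest, at 9.18, and without it the slope of Spc24 was 0.16 ± 0.03 (adjusted p 0.0019). Top2a had 10.94 in tumour 30, a median of 12.27 and 12.59 in tumour 31, and rose by 0.25 ± 0.04 (adjusted p 1.22e-05). Its slope without tumour 30 was 0.12 ± 0.04 (adjusted p 0.0203). Slopes without tumour 30 are per SD of the score over the remaining tumours. Cenpm rose by 0.32 ± 0.05 (9.29e-05), Cenph of the inner kinetochore by 0.22 ± 0.04 (0.000144) and Zwilch, a partner of Zw10, by 0.23 ± 0.05 (0.000389). Cenpi, Anln and Ccnf followed, with slopes of 0.15, 0.20 and 0.22, and then Plk1, Kif11, Kif20a, Ttk, Spc25, Zw10, Cdk1 and Cenpp, with slopes from 0.10 to 0.24. The 7 inner kinetochore genes gave 4 of the 16 and the 8 outer ones 4. The 5 spindle checkpoint genes gave Ttk alone, a kinase that starts the checkpoint. Whether roles differed in their share was not tested. Genes that did not pass had slopes from below 0, as for Cenpa (-0.08 ± 0.05, adjusted p 0.301) and Kif23 (-0.06 ± 0.04, adjusted p 0.336), and near 0 for Racgap1 (0.01 ± 0.06, adjusted p 0.939).

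Tumour 30, far below the others on the score, weighed on single genes. Without it 20 genes passed, of which 13 were among the 16, while Plk1 (adjusted p 0.0594), Ttk (0.0883) and Zw10 (0.0745) did not. Slopes that had been below or near 0 also moved without tumour 30, per SD of the score over the remaining tumours. They were 0.06 ± 0.04 for Kif23 (adjusted p 0.332), 0.14 ± 0.06 for Racgap1 (0.0831) and -0.03 ± 0.05 for Cenpa (0.736). Cdk1 (0.0937) and Cenpp (0.0744) did not pass without tumour 24. With the averaged scores of other cells (T cell, myeloid, stroma) as a covariate 10 rose, and Anln, Spc25, Ttk, Zw10, Cdk1 and Cenpp did not pass. In that fit Cenpa fell by 0.17 ± 0.06 per SD (adjusted p 0.0426). Without tumours 24 and 2, 13 rose and 1 fell, Cenpa, by 0.12 per SD on the log2 scale (adjusted p 0.0423). For the fits of this paragraph the shares of all genes called are not given here.

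T cells are a cell type that a lymphoma sample can hold beside the tumour cells. The T cell score rests on 8 of 14 listed genes that passed the filter, whose mean level ran from 6.38 to 9.99 over the tumours. Of the 43 genes, 18 fell with it (41.9%) and 0 rose, against 13.2% and 11% of all genes. Cenpp fell by 0.29 ± 0.06 per SD (log2, adjusted p 0.000332), Aurkb by 0.20 ± 0.04 (0.000597), Ccna2 (cyclin A2) by 0.18 ± 0.04 (0.00127) and Cenpn by 0.22 ± 0.05 (0.00354). Then came Cenpf, Kif4, Bub1, Anln, Kif18b, Mki67, Ccnf, Cenpa, Racgap1, Kif20a, Ect2, Cenpi, Spc25 and Ccnb2, with slopes from -0.18 to -0.10. Aurkb had 9.09 in tumour 9, 9.10 in tumour 2, a median of 10.001 and 10.46 in tumour 11. Cdc20 and Kif2c had slopes of 0.00 and 0.01. The 2 tumours with the highest score, 24 and 2, carried most of these calls: 7 genes passed without tumour 24, 8 without tumour 2, and 2 without both, Aurkb (adjusted p 0.014) and Cenpp (0.0357). Shares of all genes in these reduced fits are not given here, so the loss of calls cannot be read as particular to the module. On ranks of the score 5 passed (Aurkb, Bub1, Ccna2, Cenpp and Ect2), and Spearman's rho was -0.63 for Aurkb but -0.09 for Cenpn.

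With the level of Myc itself, the driver of these tumours, 8 of the 43 genes rose (18.6%) and 0 fell, against 10.4% and 9.67% of all genes. Aurkb rose by 0.20 ± 0.04 log2 per SD of Myc (adjusted p 0.00153), Cenpp by 0.28 ± 0.06 (0.00159), Ccna2 by 0.18 ± 0.04 (0.00199) and Racgap1 by 0.20 ± 0.05 (0.00746). Bub1, Cenpf, Mki67 and Cenpa followed, with slopes from 0.09 to 0.15. Myc and the T cell score had an r of -0.71, and their parts in these calls were not told apart by a test. Without tumour 2, 2 genes passed (Aurkb and Ccna2), without tumour 24, 5 passed, and without both 0 passed in limma, where 6 had an unadjusted p under 0.05, all higher. The loss of calls cannot be read as particular to the module, since shares of all genes in these reduced fits are not given here.

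**Figure D4:**
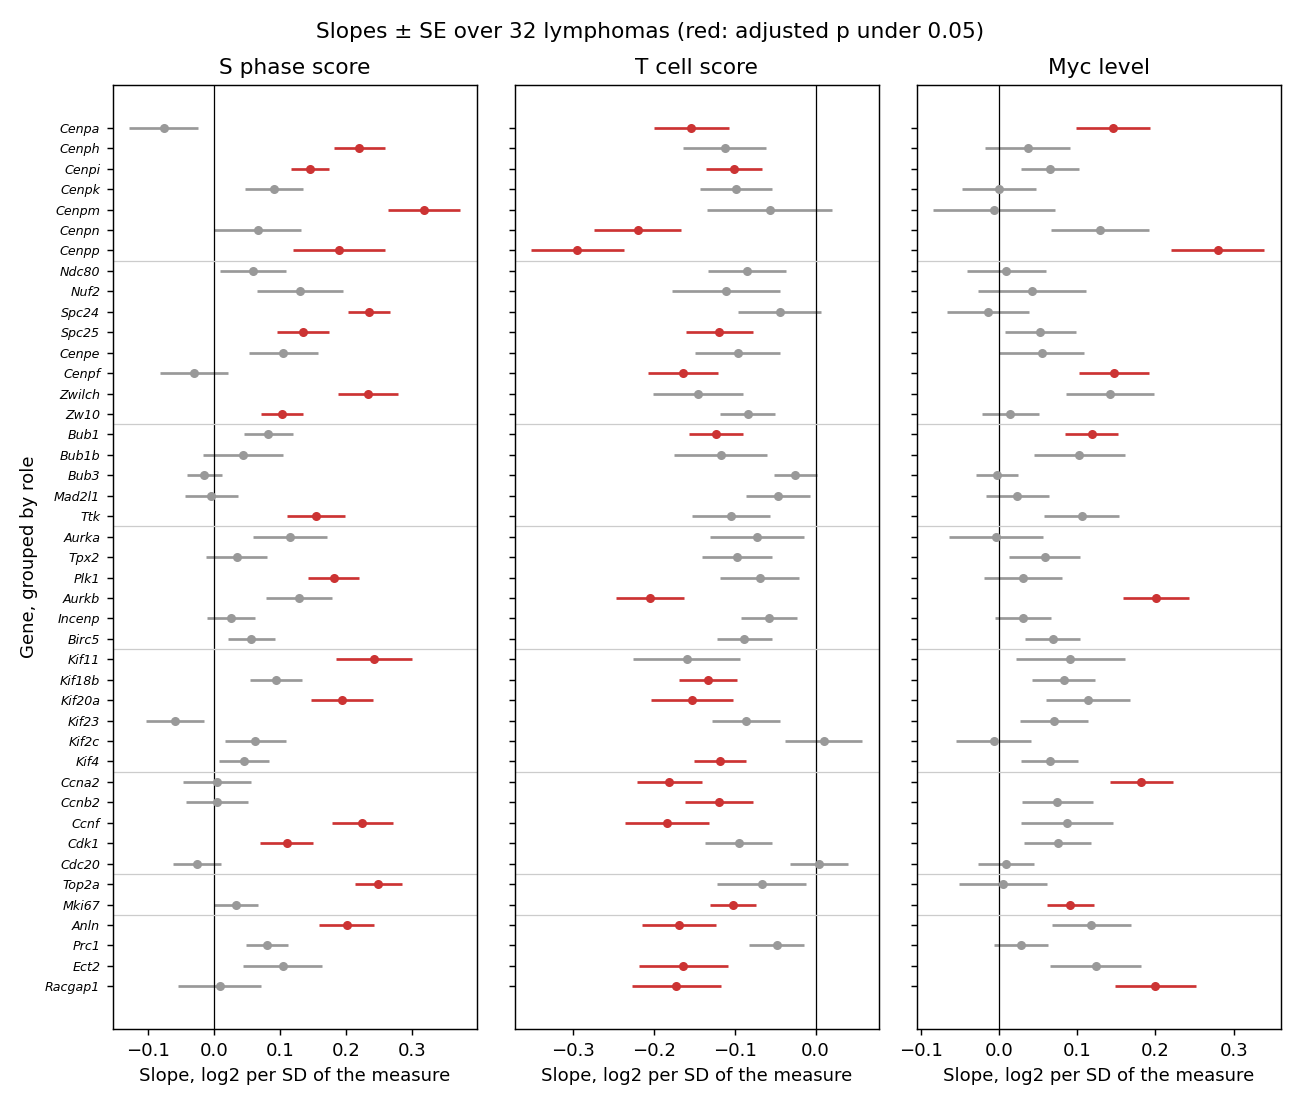
Slope (log2 per SD of the measure, point) and SE (bar) of each gene against the S phase score, the T cell score and the Myc level over 32 lymphomas, with red for an adjusted p under 0.05. Red points number 16, 18 and 8 in the 3 panels and lie right of 0 for the S phase score and Myc and left of it for the T cell score.

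Few genes passed on the other measures. With the p53 target score, 0 of 43 genes passed, against 3.59% of all genes that rose and 3.76% that fell. In limma 15 of the 43 had an unadjusted p under 0.05, all lower, against 25.8% of all genes in either direction. The smallest adjusted p was 0.0771, for Cenpm. Aurkb (-0.14 ± 0.04 log2 per SD, adjusted p 0.0218) and Cenpm (-0.21 ± 0.07, 0.0469) fell once the end gap of the control transcripts was a covariate, and Cenpe (0.16 ± 0.04, 0.0233) and Ect2 (0.16 ± 0.05, 0.0445) rose once the averaged scores of other cells (T cell, myeloid, stroma) were. With a score of precursor B cell genes 0 passed, against 1.69% of all genes that rose and 0.918% that fell. For 1 of the 43 the unadjusted p was under 0.05 in limma, against 16.9% of all genes. With the end gap itself Aurkb alone fell, by 0.19 ± 0.04 per SD (adjusted p 0.0292), against 0.321% of all genes that rose and 0.837% that fell, and without tumour 9 its adjusted p was 0.332.

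Levels were also set against those of the chromosome a gene lies on. For each tumour the median deviation of a chromosome's genes, minus that of all genes, was taken as its level, and each gene was tested against its own chromosome. Of 43 genes 9 rose with it (20.9%) and 0 fell, against 18.4% and 0.733% of all genes, a share near the background. The smallest adjusted p-values were those of Tpx2 on chromosome 2 (7.34e-05), Ect2 on chromosome 3 (0.000139), Cenpm on chromosome 15 (0.000863) and Incenp on chromosome 19 (0.00101). Cenpe, Ccna2, Racgap1, Cenpk and Cdk1 also passed. Of these 9, Tpx2 did not pass without tumour 28 (adjusted p 0.0995), Racgap1 without tumour 31 (0.109) and Cdk1 without tumour 17 (0.241). Nor did Incenp without tumour 14 or Cenpk without tumour 23, with values given below. On ranks of the chromosome level 1 passed, Ect2 (adjusted p 0.0217). The example tumours below were chosen after their values were seen and carry no test.

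Chromosome 3 was above 0.15 in 9 tumours (15, 27, 22, 8, 18, 7, 32, 12 and 10) and at -0.01 or lower in the other 23. Of the 9 highest levels of Ect2, a regulator of the cleavage furrow, 8 were in these tumours, led by 10.36 in tumour 15. Tumour 15 also had the highest level of Cenpe (10.05), a kinetochore kinesin, and of Ccna2 (11.99), which lie on the same chromosome. Chromosome 15 was raised in 5 tumours, by 0.23 to 0.30, and the 4 highest levels of Cenpm were in 4 of them: 9.42 in tumour 13, 9.41 in tumour 31, 9.32 in tumour 16 and 9.28 in tumour 20. Racgap1, on the same chromosome, ranked 1 (tumour 31), 4 (tumour 13), 7 (tumour 20), 10 (tumour 16) and 14 (tumour 17) from the highest in these 5. Ranks 2 and 3 were tumours 30 and 11, where chromosome 15 was at -0.01 and -0.03. In tumour 31 Racgap1 deviated by 0.79 from its median, while its flanking genes had a median of 0.10.

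Chromosomes were also low in single tumours. In tumour 14 chromosome 19 was at -0.58, and the deviation of Incenp from its median was -0.76, while Kif11 on the same chromosome deviated by -0.37 and was 9th from the lowest there, with flanking genes at -0.70. Without this tumour the adjusted p of Incenp was 0.561. In tumour 23 chromosome 13 was at -0.40, with deviations of -0.76 for Cenpk, -0.61 for Cenpp and -0.42 for Cenph, and without it the adjusted p of Cenpk was 0.827. In tumour 28 a stretch of chromosome 2 was low: Tpx2 deviated by -1.02 and Aurka by -0.82, where the 60 tested genes flanking each had medians of -0.46 and -0.62, while Bub1, Bub1b and Spc25 on the same chromosome deviated by 0.08, -0.02 and 0.01. Tpx2 and Aurka both had their lowest level in tumour 28, and without it the adjusted p of the pair was 0.00867. In tumour 21 Cdc20 (12.56) and Kif2c (10.11), a microtubule-depolymerising kinesin, had their highest levels, and their flanking genes on chromosome 4 had medians of 0.66 and 0.63. In tumour 28 chromosome 4 was at -0.27, and Kif2c and Cdc20 deviated by -0.03 and -0.09, with flanking genes at -0.15 and -0.21. These 2 genes lie at places 328 and 344 in the order of the chromosome's tested genes. With 30 flanking genes taken on each side, their 2 sets overlap. DNA copy number was not measured here.

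**Figure D5:**
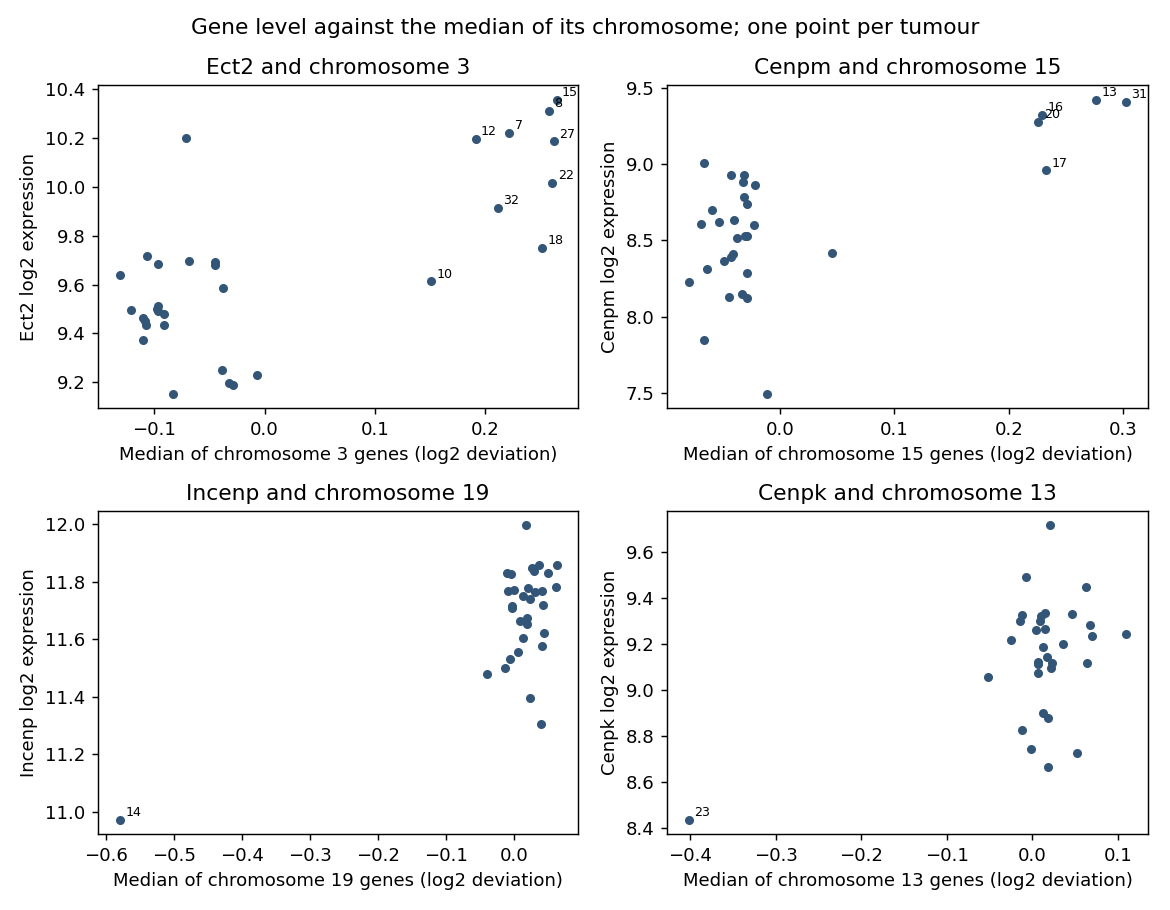
Level of Ect2, Cenpm, Incenp and Cenpk (log2 expression) against the median deviation of the genes of their chromosome (log2), 1 point per tumour, with numbers on tumours more than 0.15 from 0. Chromosome 3 is raised in 9 tumours and chromosome 15 in 5, while chromosome 19 is lowered in tumour 14 and chromosome 13 in tumour 23.

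Other genes of cell division were counted on the same scores, where 15.7% of all genes rose with the S phase score and 13.2% fell with the T cell score. Of 26 further kinetochore genes 12 rose with the S phase score and 11 fell with the T cell score, of 17 condensin and cohesin genes 10 and 10, of 20 spindle and centrosome genes 8 and 13, of 16 genes of the anaphase-promoting complex 7 and 4, and of 23 cell cycle regulators (E2F, Rb and MuvB family genes, Foxm1, Mybl2, Cdc25 phosphatases, Wee1 and Pkmyt1) 11 and 8, while 1 fell with the S phase score. Of the 28 S phase genes 3 fell with the T cell score. These counts were repeated without the tumours that stand apart, a choice made after seeing the data. The shares of 15.7% and 13.2% belong to the fits over all tumours and are no background for the repeated counts. For the reduced fits the shares of all genes called are not given here. A changed count thus cannot be read as particular to its list. Without tumours 24 and 2 the counts that fell with the T cell score were 3 further kinetochore genes, 0 condensin and cohesin genes, 1 spindle and centrosome gene, 1 gene of the anaphase-promoting complex, 1 regulator and 0 S phase genes in limma, where 2 condensin and cohesin genes and 2 S phase genes had an unadjusted p under 0.05. The counts that rose with the S phase score were then 9, 6, 8, 5 and 10 for the same 5 lists in that order. Without tumour 30 the counts that rose with the S phase score were 11 further kinetochore genes, 9 condensin and cohesin genes, 5 spindle and centrosome genes, 4 genes of the anaphase-promoting complex and 4 regulators, and Pttg1 of the condensin and cohesin list fell (adjusted p 0.00186). Kntc1, the partner of Zw10 and Zwilch, rose with the S phase score by 0.40 ± 0.05 per SD (adjusted p 2.01e-06), and Fbxo5, an inhibitor of the anaphase-promoting complex, by 0.38 ± 0.05 (1.89e-06). Espl1 (separase) rose with it by 0.22 ± 0.05 (0.00171) and Haus4, an augmin subunit, by 0.20 ± 0.05 (0.00275). Without tumour 30 these 4 passed, with a slope of 0.23 ± 0.05 for Kntc1 (adjusted p 0.00279) and 0.29 ± 0.05 for Fbxo5 (0.000359). Oip5, a CENP-A loading factor, fell with the T cell score by 0.25 ± 0.05 (0.000348), and Tfdp2, a partner of E2F factors, by 0.39 ± 0.09 (0.00125). Without tumours 24 and 2 the slope of Oip5 was -0.18 ± 0.05 (adjusted p 0.0393) and that of Tfdp2 -0.10 ± 0.09 (0.600). Pttg1 (securin) rose with the T cell score by 0.21 ± 0.08 (adjusted p 0.048), but its adjusted p was 0.497 without tumours 24 and 2. Pttg1 had an r of -0.41 to the mean of the module.

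The genes outside the module most like it, by r to the mean standardised level of the 43 genes over 32 tumours, were Ckap5 (0.84), Ska2 (0.80), Srsf3 (0.79), BC055324 (0.78), Knl1 (0.78), Ncapd2 (0.77), Tacc3 (0.77), Ncaph (0.77), Spag5 (0.76), Parpbp (0.76), Lrmp (0.76), Mns1 (0.75), Kif22 (0.75), Smc1a (0.75) and Mtif2 (0.75). Ckap5 is a microtubule polymerase, Ska2 and Knl1 are kinetochore proteins, and Ncapd2 and Ncaph are condensin subunits. Of the 50 most like it, 16 were in the other cell division lists, which hold 102 of the 11185 tested genes outside the module (0.912%). The genes most opposed were Sidt2 (-0.78), Snx18 (-0.78), Cxcl16 (-0.76), Ptpre (-0.74) and Gng12 (-0.74).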

How the data were processed

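RNA of 32 lymphomas was measured on 1 array each. The deposited values are log2 expression levels. The authors used RMA and affy to make them, as the submitters' processing notes say, and no version of either is stated there. RMA equalises the arrays' distributions, so a shift shared by most genes would be hidden. Array medians were 5.72 to 5.80, and every column was used (0 others). The 45101 probe sets include 34958 annotated to a single gene, 932 to several and 9211 to none. Probe sets with a mean of at least 5.78 (the median) were kept, and the brightest stood for its gene.

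Scores are means of standardised levels. Genes were fitted on each measure with limma 3.58.1 in R 4.3.3 (lmFit, eBayes), adjusted over all genes, leaving out the genes of the score. A chromosome's median includes the gene tested. Steps were tested on simulated data; motifs and figures used Python 3.11.15. The members and lists were chosen with earlier results of these data known. Named genes were those with the 6 largest and 6 smallest SDs, up to 8 called per measure, partner pairs, the 15 most and 5 least like genes and list genes of large SD. Alternatives were other probe set rules and filters, ranks, covariates, and tumours left out. The number of arrays limits the precision, and p-values measure the spread between these samples, which may be technical.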

Additional observations from a re-analysis of the deposited data

How the results depend on the processing

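Of 74 values under alternatives other than single tumours left out, 59 stayed within the limits set (counts within 1.5 times, the spread values within 1 SD), 15 moved and 0 changed sign; the causes were not tested except as named. The Myc count of 8 became 0 without the 2 tumours of highest T cell score, 2 on ranks and 3 with other cells (averaged T cell, myeloid and stroma scores) as covariate. The T cell count of 18 became 1 under the filter at the 75th percentile, where the score rests on Cd2 alone, 2 without those 2 tumours and 5 on ranks. The p53 count of 0 became 1 with no filter, 2 (both lower) with the 3' minus 5' covariate and 2 (both higher) with the other-cell covariate. The RNA quality count of 1 became 0 with the mean of probe sets, 0 without the 11 Bpifa2 tumours, 3 without the 2 tumours of highest T cell score and 0 on ranks. The chromosome count of 9 became 1 on ranks, and 3 of 19 partner pairs passed with the other-cell covariate, against 5 without. With each tumour left out in turn, counts ran from 2 to 11 for Myc, 14 to 20 for the S phase score, 0 to 3 for p53, 0 to 0 for precursor B, 7 to 22 for the T cell score, 0 to 2 for RNA quality, 7 to 10 for the chromosome and 4 to 6 for partner pairs, the median SD from 0.263 to 0.289 and the mean r from 0.352 to 0.428. Single tumours that moved a count by over 1.5 times were, for Myc, tumours 2 (2) and 24 (5), and for the T cell score, tumours 2 (8) and 24 (7). For RNA quality they were tumours 9 and 21 (0) and 2 and 24 (2), and for p53, tumours 27 (3), 30 and 31 (1). Shares of all genes called under these alternatives are not given here, so a moved count cannot be read as particular to the module. No paired analysis was possible because the labels give 1 group.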
